A study of Danio rerio with 9 samples.

Results

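Lysosomal genes were described here in ventricles of adult zebrafish mutant for the lymphatic growth factors *vegfc* and *vegfd*, against control ventricles. They comprised the soluble hydrolases, their activators and the proteins of the limiting membrane. The genes were taken from a list of 59 symbols, matched to Ensembl identifiers through a table of gene names. If a symbol was absent from that table, its final a or b was dropped. A row of counts was found for 55 symbols, which gave 58 genes out of the 16575 in the table. Of the other 4 symbols, 3 were not in the name table, *fuca1.1* and *scarb2b* among them, and *acp5a* had an identifier but no row. Among the 58 genes, 12 carried a symbol that another identifier shares, so the identifier is given for those with values of their own, and how reads were split between such copies is uncertain. All 58 had a mean of at least 10 counts in each genotype, so none entered the table through 1 genotype alone.

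RNA-seq was performed on fresh ventricles of uninjured fish at 5 months of age, in 4 mutant and 5 control libraries. Mutants were labelled *vegfc*(hy-/-);*vegfd*(-/-). They are homozygous for a hypomorphic allele of *vegfc* (hu5055) and for a mutation of *vegfd* (uq9bh), the ligands of the lymphatic receptor Flt4. Controls were labelled *vegfc*(+/+):*vegfd*(+/+). The sources used here do not say whether they came from the same crosses as the mutants, so the mutations and any other difference in genetic background cannot be told apart. Nor do they give the sex of the fish, the number of ventricles in a library or whether these fish carried the *lyve1b* reporter transgene. P-values therefore measure the spread between libraries.

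Totals were 27320575 to 33496006 counts in mutant libraries and 23302636 to 33407859 in control libraries. Expression is given as CPM, in which the total of each library is set to the same size after TMM scaling (trimmed mean of M values). *vegfd* was at 0.350, 0.345, 0.648 and 0.127 CPM in mutants, against 4.76, 1.55, 2.18, 2.01 and 2.52 CPM in controls. It fell in mutants, with a difference of -2.82 ± 0.51 (SE) on the log2 scale at an adjusted p of 0.0195 in edgeR. The call was lost without mutant replicate 6 or 7, at an adjusted p-value of at most 0.0611 by edgeR. *vegfc* had 59 to 195 counts in mutants and 35 to 122 in controls (edgeR adjusted p-value 0.719), and a hypomorphic allele need not lower its mRNA. The 12 cardiomyocyte marker genes with a row were detected in both genotypes.

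Lysosomes are acidic organelles that break down lipids, glycans and proteins delivered by endocytosis, phagocytosis and autophagy. Sugars are removed from glycosphingolipids one at a time from the outer end, by hydrolases that need saposins or the GM2 activator to reach the membrane lipid, until ceramide is left for acid ceramidase. Cathepsins are the lysosomal proteases, and macrophages are especially rich in them. In humans, loss of single hydrolases causes storage diseases. Among these, Fabry disease and Pompe disease affect the heart.

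Lysosomal genes were mostly fitted higher in mutants. A gene was called where edgeR's quasi-likelihood test gave it an adjusted p-value under 0.05. By that rule 12 of the 58 rose and 1 fell, and 45 did not pass. The 12 are 20.7% of the lysosomal genes, and among all genes 2.13% were called higher, 1.21% lower and 3.34% in either direction. The genes that rose were *hexa*, *hexb*, *gla*, *galc* (ENSDARG00000016474), *asah1* (ENSDARG00000034817), *galns*, *aga*, *npc2* (ENSDARG00000090912), *ctsb*, *ctsd*, *ctsk* and *tpp1*. *idua* fell. Fitted log2 fold changes were above 0 for 52 of the 58, against 48.7% of all genes, and their median was 0.56, against -0.01 for all genes. Every mutant library lay above every control library for 26 of the 58, and below for 1, as was so for 6.07% and 4.46% of all genes. An unadjusted p-value under 0.05 was reached by 35 of the 58 in the higher direction and 1 in the lower, and by 11.0% and 9.87% of all genes. In bulk ventricles, more cells of a type and more RNA per cell cannot be told apart. The members were chosen with earlier results of these data known, so these counts describe the list and are not a test of it.

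**Figure D1:**
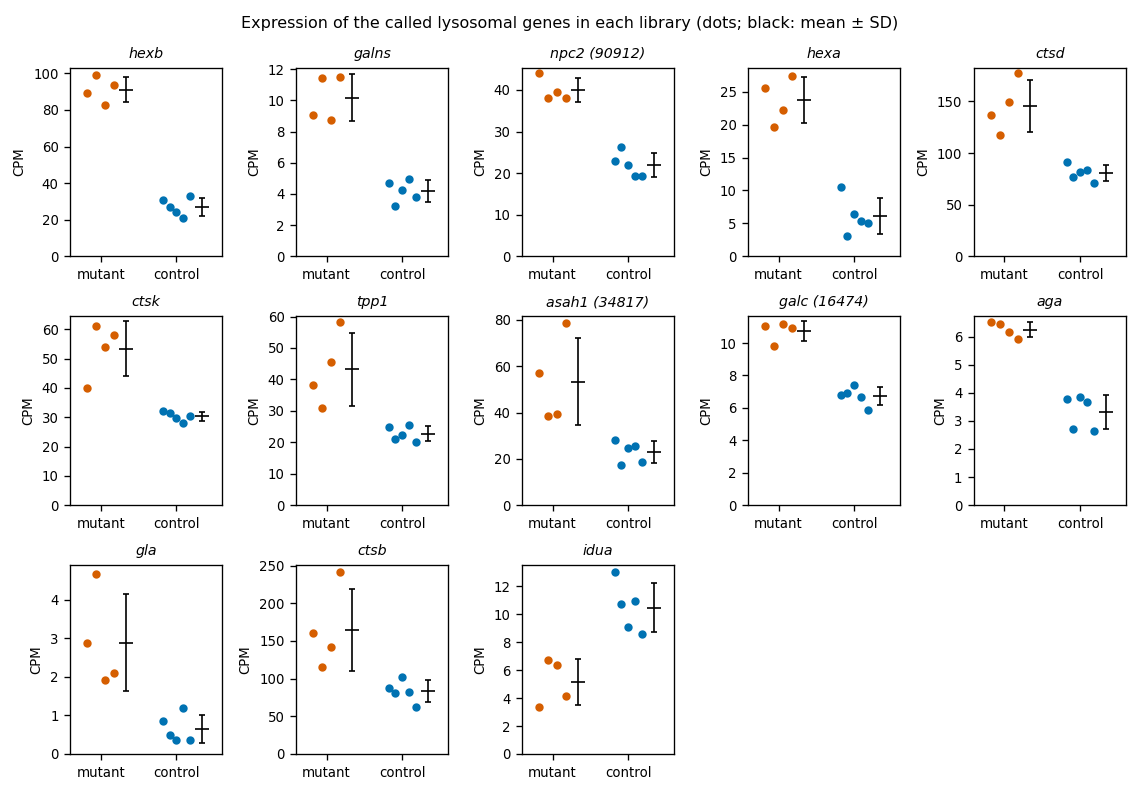
Expression of the 13 called lysosomal genes in CPM (vertical axes, from 0) in mutant libraries (orange) and control libraries (blue), with 1 dot per library and the mean ± SD in black; digits after a shared symbol are the end of its identifier. In each of the 13 panels the mutant and control dots do not overlap, and *idua* alone lies lower in mutants.

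Of these 13 calls, 6 were kept in each of the 9 fits that left out a library, those of *hexa*, *hexb*, *galns*, *npc2* (ENSDARG00000090912), *ctsd* and *ctsk*. The number of lysosomal genes called higher was 7 without mutant replicate 6, 7 without mutant replicate 8, 6 without mutant replicate 9, 7 without control replicate 3 and 6 without control replicate 5. The share of all genes called higher fell in the same fits, to 0.989%, 1.03%, 0.851%, 0.959% and 1.21%. With no library left out, it was 2.13%.

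Glycosphingolipid hydrolases held the 2 highest fitted changes of the 58 genes, those of *gla* and *hexa*. Of 11 genes, 5 rose (45.5%, against 2.13% of all genes), none fell and 6 did not pass. The median log2 fold change was 0.68, with a range from -0.08 to 2.13. In 8 of the 11, the mutant libraries lay above every control library, as was so for 6.07% of all genes. The number called was 2 without mutant replicate 6, 3 without mutant replicate 7, 3 without mutant replicate 8, 2 without mutant replicate 9, 3 without control replicate 3 and 2 without control replicate 5. In those fits, 0.821% to 1.21% of all genes were called higher.

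*hexb* encodes the beta subunit of beta-hexosaminidase, which takes the terminal N-acetylgalactosamine from GM2 ganglioside. It was at 89.2, 99.2, 82.5 and 93.5 CPM in mutants, against 30.9, 26.7, 24.0, 20.9 and 32.97 CPM in controls. The lowest mutant library stood far above the highest control, and neither genotype held a library apart from the rest. The fold change was 3.36, or 1.75 ± 0.15 (SE) on the log2 scale, at an adjusted p of 0.000404 in edgeR. With single libraries left out, the log2 fold change stayed between 1.67 and 1.83, with an adjusted p-value of at most 0.00309 by edgeR.

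*hexa* encodes the alpha subunit, which pairs with the beta subunit in the form of the enzyme that acts on GM2 in mammals. It was at 25.6, 19.7, 22.3 and 27.4 CPM in mutants, against 10.6, 3.06, 6.45, 5.44 and 5.04 CPM in controls. Control replicate 1 was the highest control and still lay below every mutant. The fold change was 3.87, or 1.95 ± 0.29 (SE) on the log2 scale, at an adjusted p of 0.00923 in edgeR. Both subunit genes thus rose more than 3-fold. *gm2a* (ENSDARG00000088439), which encodes the GM2 activator that presents the lipid to this enzyme, was not called. Its log2 change was 0.61 ± 0.22 (SE), at an adjusted p of 0.147 in edgeR, and its 4 mutant libraries (16.5 to 25.6 CPM) lay above the 5 controls (7.64 to 15.8 CPM).

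*gla* encodes alpha-galactosidase A, the enzyme of globotriaosylceramide breakdown that is lost in Fabry disease. It was at 2.87, 4.68, 1.91 and 2.1 CPM in mutants, against 0.865, 0.503, 0.368, 1.19 and 0.355 CPM in controls. These levels rest on 53 to 149 counts in mutants and 11 to 38 in controls, and mutant replicate 7 was the highest. The fold change was 4.37, or 2.13 ± 0.45 (SE) on the log2 scale, at an adjusted p of 0.0354 in edgeR. The call did not hold without any 1 of the 4 mutant libraries or without control replicate 2, 3 or 5, where the adjusted p-value was 0.0545 to 0.102 by edgeR.

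*asah1* stands for acid ceramidase, which splits ceramide into sphingosine and a fatty acid. Of its 2 genes, ENSDARG00000034817 was at 56.9, 38.6, 39.4 and 78.5 CPM in mutants, against 28.2, 17.3, 24.6, 25.3 and 18.4 CPM in controls. Its mutant libraries were widely spread, with replicate 9 the highest, and none reached down to the controls. On the log2 scale the difference was 1.23 ± 0.24 (SE), at an adjusted p of 0.0252 in edgeR. Without mutant replicate 6 or 9, or control replicate 3 or 5, the adjusted p-value was 0.0539 to 0.0648 by edgeR. The other gene, ENSDARG00000037091, was at 4.68 to 8.40 CPM in mutants and 3.17 to 5.47 CPM in controls, overlapped and was not called (log2 fold change 0.55 ± 0.23 SE).

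*galc* stands for galactosylceramidase, which takes galactose from galactosylceramide. ENSDARG00000016474 was at 11.03, 9.83, 11.2 and 10.9 CPM in mutants, against 6.77, 6.95, 7.41, 6.67 and 5.89 CPM in controls. Both genotypes were tight. The difference was 0.67 ± 0.13 (SE) on the log2 scale, at an adjusted p of 0.0269 in edgeR, which was 0.0505 to 0.0666 without any 1 of the mutant libraries or without control replicate 4 or 5. The second gene, ENSDARG00000037064, was at 5.85, 16.2, 13.1 and 6.65 CPM in mutants, against 5.62, 1.42, 5.66, 5.82 and 5.60 CPM in controls. Mutant replicates 6 and 9 lay just above the controls and replicates 7 and 8 well above them. The gene was not called (log2 change 1.11 ± 0.42 SE, adjusted p = 0.168 by edgeR).

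The other glycosphingolipid hydrolases were not called. *neu1*, the lysosomal sialidase, was at 8.58 to 10.02 CPM in mutants and 4.35 to 7.14 CPM in controls, with a difference of 0.62 ± 0.17 (SE) on the log2 scale at an adjusted p of 0.0754 in edgeR. *arsa*, the sulfatidase arylsulfatase A, was at 4.73 to 9.51 CPM in mutants and 3.20 to 4.34 CPM in controls (log2 change 0.68 ± 0.24 SE, adjusted p = 0.145 by edgeR). Neither gene overlapped between genotypes. *smpd1*, acid sphingomyelinase, was at 8.29 to 16.7 CPM in mutants and 7.45 to 10.9 CPM in controls (log2 change 0.43 ± 0.21 SE, adjusted p = 0.275 by edgeR). *glb1*, lysosomal beta-galactosidase, lies on the chromosome of *vegfc* and was the 1 gene of the group below 0, at a log2 fold change of -0.08 ± 0.25 (SE). Its value changed sign with single libraries left out and ranged from -0.36 to 0.04.

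*psap*, the precursor of the saposins, was at 357, 281, 351 and 438 CPM in mutants, against 302, 308, 262, 257 and 269 CPM in controls. Mutant replicate 7 lay among the controls and the gene was not called (log2 change 0.35 ± 0.14 SE, adjusted p = 0.179 by edgeR).

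**Figure D2:**
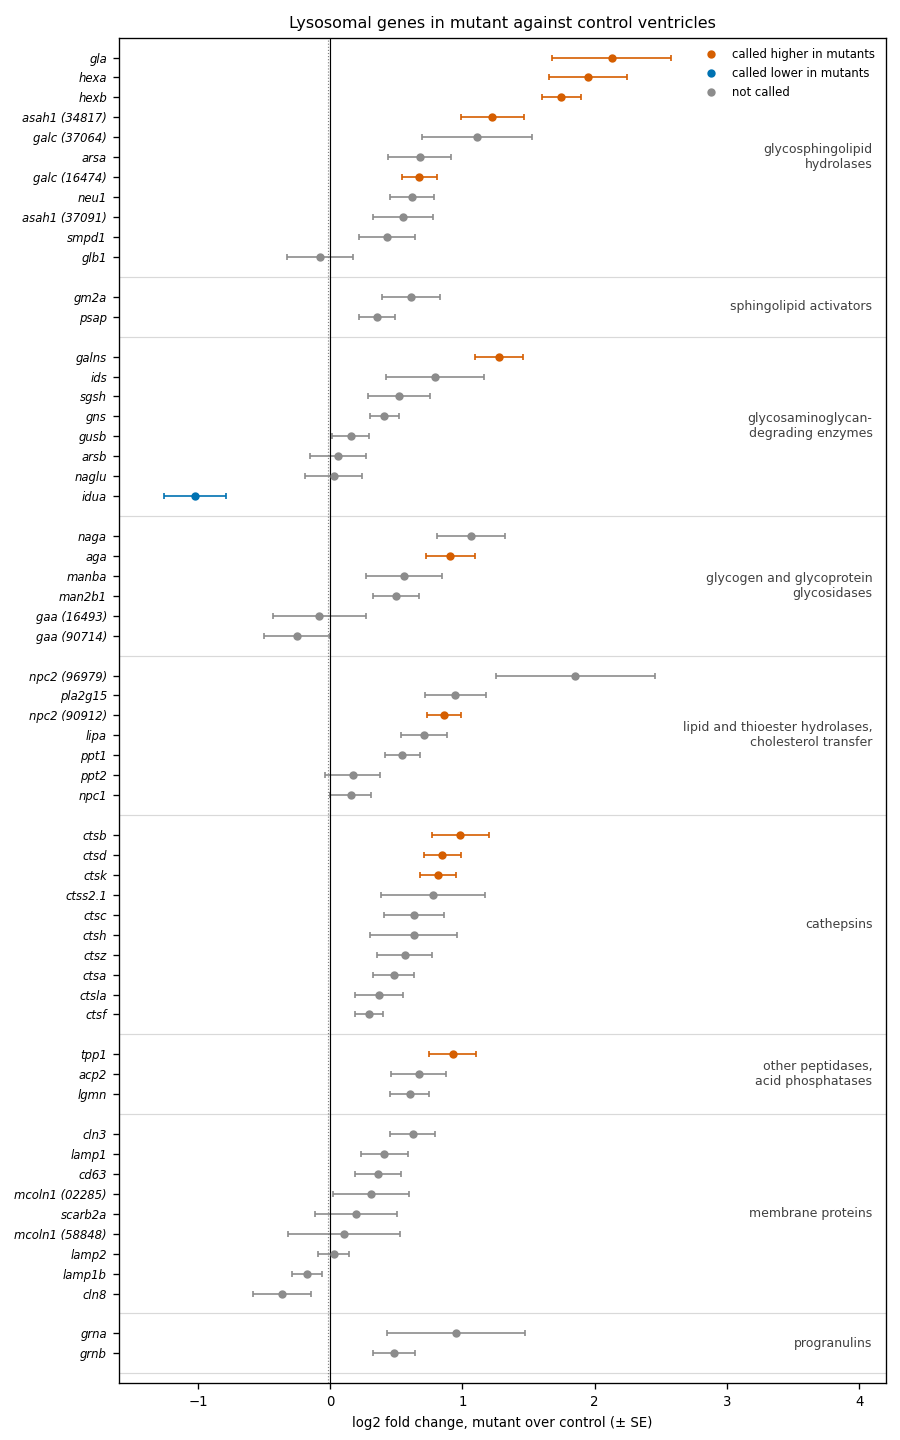
Log2 fold change of each of the 58 lysosomal genes (horizontal axis, mutant over control, ± SE), grouped by role, with genes called higher in mutants in orange, called lower in blue and not called in grey; the dotted line is the median of all genes at -0.01. Called genes are spread over 6 of the 9 role groups, the 2 highest values are of glycosphingolipid hydrolases, and the membrane proteins hold none.

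Cathepsins were all fitted higher in mutants, against 48.7% of all genes. Of 10 genes, 3 rose (30.0%, against 2.13% of all genes) and 7 did not pass. Their log2 fold changes ranged from 0.29 to 0.98 with a median of 0.63. In 5 of the 10, the mutant libraries lay above every control library, against 6.07% of all genes. The medians of the cathepsins and the glycosphingolipid hydrolases were close, and the difference between these groups was not tested.

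*ctsd*, the aspartyl protease cathepsin D, was at 137, 117, 150 and 177 CPM in mutants, against 90.9, 76.9, 81.5, 83.3 and 70.9 CPM in controls. Every mutant library lay above the controls, which were close to each other. On the log2 scale the difference was 0.85 ± 0.14 (SE), at an adjusted p of 0.0136 in edgeR. The call held with each single library left out, at an adjusted p-value of at most 0.0388 by edgeR.

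*ctsk*, cathepsin K, is a cysteine protease known in mammals for the breakdown of bone collagen by osteoclasts. It was at 39.9, 61.2, 54.1 and 58.0 CPM in mutants, against 32.1, 31.3, 29.7, 27.9 and 30.3 CPM in controls. Mutant replicate 6 was the lowest mutant and still above the controls. The difference was 0.82 ± 0.14 (SE) on the log2 scale, at an adjusted p of 0.0161 in edgeR, and at most 0.0492 with a library left out. None of the 7 osteoclast and bone genes of the marker list had a row in the table. Of these, *oscar* and *dcstamp* were not in the name table and could not be looked up. *calcr*, *ocstamp*, *sp7*, *bglap* and *spp1* had an identifier but no row, as was so for *acp5a*. Genes with a mean count under 10 had been dropped from the table, and the presence of osteoclasts was not tested.

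*ctsb*, the cysteine protease cathepsin B, was at 161, 115, 142 and 242 CPM in mutants, against 87.0, 81.1, 102.7, 82.8 and 62.8 CPM in controls. Mutant replicate 9 was the highest by a wide margin. On the log2 scale the difference was 0.98 ± 0.21 (SE), at an adjusted p of 0.0380 in edgeR. The call held only without mutant replicate 7. Without any other single library, the adjusted p-value was 0.0551 to 0.0843 by edgeR.

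The other cathepsins did not pass. *ctsa*, which encodes the serine carboxypeptidase that protects the sialidase and beta-galactosidase, was at 37.6 to 57.1 CPM in mutants and 26.4 to 36.2 CPM in controls (log2 fold change 0.48). *ctsf* was at 55.03 to 64.9 CPM in mutants and 46.7 to 53.6 CPM in controls (0.29 on the log2 scale), and these 2 genes did not overlap. *ctsc*, which activates the serine proteases of leukocyte granules in mammals, overlapped, at 36.7 to 78.3 CPM in mutants and 26.1 to 44.9 CPM in controls. So did *ctsz*, *ctsla*, *ctsh* and *ctss2.1*, with log2 fold changes of 0.56, 0.37, 0.63 and 0.78. For *ctsh*, mutant replicate 9 held 75.6 CPM and the other mutants 32.7 to 33.5 CPM, against 16.1 to 44.2 CPM in controls. *ctss2.1* was likewise highest in mutant replicate 9, at 44.1 CPM, and among controls in replicate 3, at 25.0 CPM.

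Of the 8 enzymes of glycosaminoglycan breakdown, 7 were fitted above 0 and 1 below, against 48.7% of all genes above 0. By the adjusted threshold 1 rose (12.5%) and 1 fell, against 2.13% and 1.21% of all genes. *galns*, the sulfatase that acts on keratan sulfate and chondroitin 6-sulfate, was at 9.03, 11.4, 8.72 and 11.5 CPM in mutants, against 4.73, 3.20, 4.27, 4.97 and 3.82 CPM in controls. The genotypes stood well apart, with a difference of 1.27 ± 0.18 (SE) on the log2 scale at an adjusted p of 0.00648 in edgeR. *idua*, the iduronidase of heparan and dermatan sulfate breakdown, was at 3.36, 6.75, 6.38 and 4.13 CPM in mutants, against 13.0, 10.7, 9.11, 10.9 and 8.56 CPM in controls. Every mutant library lay below the controls, with a difference of -1.02 ± 0.24 (SE) on the log2 scale at an adjusted p of 0.0463 in edgeR. That call was lost in each of the 9 fits with a library left out (adjusted p-value 0.0581 to 0.116 by edgeR), although *idua* stayed lower in all of them. *gns*, a sulfatase of heparan and keratan sulfate, was at 63.2 to 71.4 CPM in mutants and 46.6 to 57.4 CPM in controls and did not pass (log2 fold change 0.41 ± 0.11 SE). *sgsh*, *ids*, *gusb*, *arsb* and *naglu* overlapped between genotypes, with log2 fold changes from 0.03 for *naglu* to 0.79 for *ids*.

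Among glycosidases of glycoproteins and glycogen, 1 of 6 rose (16.7%, against 2.13% of all genes). *aga*, which frees asparagine from the sugar chain in glycoprotein breakdown, was at 6.51, 6.44, 6.16 and 5.91 CPM in mutants, against 3.77, 2.70, 3.85, 3.68 and 2.64 CPM in controls. The mutant libraries were nearly level with each other. The difference was 0.91 ± 0.18 (SE) on the log2 scale, at an adjusted p of 0.0311 in edgeR, which was 0.0506 to 0.0800 without any 1 of the mutant libraries or without control replicate 3, 4 or 5. *naga*, alpha-N-acetylgalactosaminidase, had no overlap and an edgeR adjusted p-value of 0.0543, at 8.0 to 16.2 CPM in mutants and 4.25 to 7.33 CPM in controls. The mannosidases *man2b1* and *manba* overlapped, with log2 fold changes of 0.50 and 0.56. Both *gaa* genes, for the glycogen-splitting acid alpha-glucosidase lost in Pompe disease, were fitted slightly below 0, at -0.25 for ENSDARG00000090714 and -0.08 for ENSDARG00000116493. *fuca1*, a symbol added after the name table had been read, had 2 genes. ENSDARG00000035890 rose (log2 change 1.23 ± 0.27 SE, adjusted p = 0.0380 by edgeR), although its libraries overlapped and the call held in 2 of the 9 fits with a library left out. ENSDARG00000035879 was not called (0.35 on the log2 scale).

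Genes for cholesterol and lipid handling were all fitted higher, against 48.7% of all genes. Of the 7, 1 passed (14.3%, against 2.13% of all genes called higher). *npc2*, the soluble carrier that hands cholesterol to the membrane protein Npc1, had 2 genes. ENSDARG00000090912 was at 44.1, 38.0, 39.6 and 38.0 CPM in mutants, against 22.99, 26.3, 21.9, 19.3 and 19.3 CPM in controls. The genotypes were cleanly apart, with a difference of 0.86 ± 0.13 (SE) on the log2 scale at an adjusted p of 0.00852 in edgeR. The other, ENSDARG00000096979, held 41 to 174 counts in mutants and 6 to 40 in controls. It overlapped and was not called (log2 change 1.85 ± 0.60 SE, adjusted p = 0.120 by edgeR), although its fitted change was above that of *hexb*. *npc1* itself was at 43.2 to 54.2 CPM in mutants and 32.9 to 52.8 CPM in controls (log2 change 0.16 ± 0.15 SE, adjusted p = 0.613 by edgeR).

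The remaining genes of this group fell just short or did not differ beyond their spread. *lipa*, the acid lipase of cholesteryl esters and triglycerides, was at 17.1 to 28.7 CPM in mutants and 10.7 to 14.4 CPM in controls (log2 change 0.71 ± 0.17 SE, adjusted p = 0.0527 by edgeR). *pla2g15*, the lysosomal phospholipase A2, was at 23.2 to 38.2 CPM in mutants and 8.95 to 20.1 CPM in controls (0.95 ± 0.23 SE, adjusted p = 0.0549 by edgeR). *ppt1*, a thioesterase that takes palmitate off proteins, had an edgeR adjusted p-value of 0.0559, and *ppt2* (ENSDARG00000104542) was at 0.17 on the log2 scale. In all, 8 lysosomal genes had an adjusted p-value of at least 0.05 but under 0.10, each of them fitted higher in mutants.

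Of the 3 other peptidases and acid phosphatases, 1 rose, *tpp1* (33.3%, against 2.13% of all genes). This tripeptidyl peptidase was at 38.3, 31.0, 45.5 and 58.2 CPM in mutants, against 24.9, 20.9, 22.3, 25.4 and 20.2 CPM in controls. Replicate 9 was the highest mutant, and the controls were tight. On the log2 scale the difference was 0.93 ± 0.18 (SE), at an adjusted p of 0.0248 in edgeR. It was 0.0513 to 0.0604 without mutant replicate 8 or 9 or control replicate 3 or 5. *lgmn*, an asparaginyl endopeptidase that matures cathepsins, and *acp2*, an acid phosphatase, did not overlap between genotypes and were not called, at 0.60 and 0.67 on the log2 scale.

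No membrane protein gene passed the adjusted threshold. At an unadjusted p-value under 0.05 there were 2 of 9 by edgeR (22.2%), *cln3* and *lamp1*, both higher. Of all genes, 11.0% reached it in that direction and 20.9% in either. A count of 2 among 9 genes is too small to be read as a difference from these shares. The median log2 fold change was 0.19, with 7 genes above 0 and 2 below. *lamp2*, a main glycoprotein of the lysosomal membrane, was at 72.5, 70.01, 72 and 81.0 CPM in mutants, against 63.0, 81.8, 74.3, 66.4 and 77.4 CPM in controls. These levels were mixed between genotypes, with a log2 fold change of 0.03 ± 0.12 (SE). *lamp1* was at 27.8 to 40.5 CPM in mutants and 21.4 to 35.8 CPM in controls (0.41 ± 0.18 SE, adjusted p = 0.222 by edgeR), whereas *lamp1b* was at 30.6 to 37.6 CPM in mutants and 33.7 to 41.5 CPM in controls (-0.18 ± 0.12 SE). *cln3* was the 1 gene of the group without overlap, at 6.70 to 8.62 CPM in mutants and 4.25 to 5.88 CPM in controls (0.62 ± 0.17 SE, adjusted p = 0.0757 by edgeR). Among all genes, 6.07% were higher without overlap and 4.46% lower, and 1 gene of 9 is not read as a difference from these shares. The tetraspanin *cd63*, the enzyme receptor *scarb2a*, both *mcoln1* genes (ENSDARG00000002285 and ENSDARG00000058848) for the lysosomal cation channel and *cln8*, an endoplasmic reticulum protein, had log2 fold changes from -0.36 for *cln8* to 0.36 for *cd63*. The difference between the membrane proteins and the soluble enzymes was not tested.

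The progranulins are secreted precursors of granulins, which are formed in lysosomes. *grna* was at 39.0, 16.6, 27.7 and 103 CPM in mutants, against 22.2, 11.5, 47.3, 21.1 and 18.3 CPM in controls. Mutant replicate 9 and control replicate 3 stood above the rest of their genotypes, and the gene was not called (log2 fold change 0.95 ± 0.52 SE). *grnb* was at 16.2 to 21.4 CPM in mutants and 10.01 to 15.6 CPM in controls (0.48 ± 0.16 SE, adjusted p = 0.126 by edgeR).

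**Figure D3:**
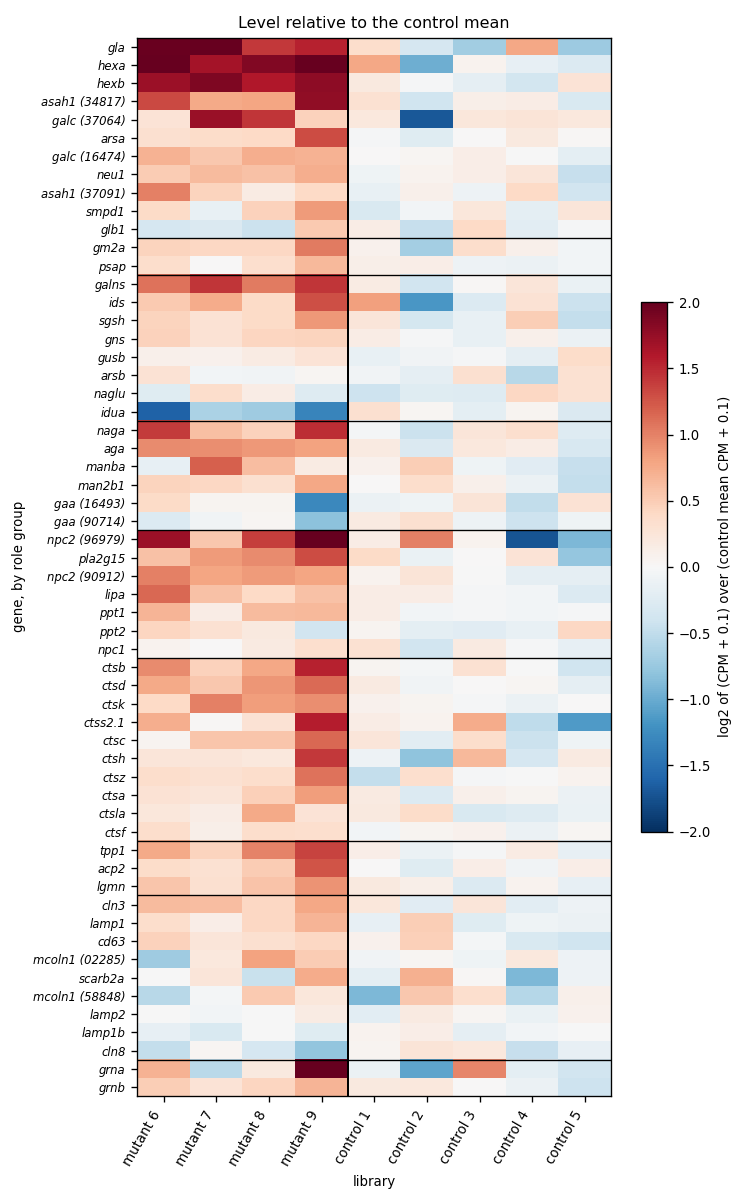
Level of the 58 lysosomal genes (rows, by role group) in each library (columns, 4 mutant then 5 control), as log2 of CPM plus 0.1 over the control mean plus 0.1, with colours limited at -2 and 2. Red fills most of the mutant columns, *idua* is blue in all 4, and mutant replicate 9 holds the highest mutant level for 33 of the 58 genes.

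Mutant replicate 9 held the highest level among mutants for 33 of the 58 genes (56.9%), against 25.5% of all genes. Summed over the 58 genes, expression was 2390.5, 2147, 2458 and 2997 CPM in mutants, against 1842, 1847, 1731, 1598 and 1580 CPM in controls. The glycosphingolipid hydrolases summed to 231, 222, 207 and 271 CPM in mutants, against 112, 84.2, 103, 96.7 and 97.7 CPM in controls. The cathepsins summed to 796, 735, 923 and 1081 CPM in mutants, against 626, 617, 598, 522 and 522 CPM in controls. No mutant sum reached down to a control sum in these 3 cases. For the membrane proteins the sums overlapped, at 328 to 387 CPM in mutants and 255 to 396 CPM in controls.

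Leukocyte markers were set beside these sums, since leukocytes are rich in lysosomes. None of 8 pan-leukocyte genes and none of 21 macrophage genes was called by edgeR's quasi-likelihood test. By that test 4 macrophage genes (19.0%), all higher, and 0 pan-leukocyte genes reached an unadjusted p-value under 0.05. Of all genes, 11.0% did so in the higher direction. The pan-leukocyte genes summed to 136, 69.3, 102 and 282 CPM in mutants, against 113, 94.1, 238, 93.8 and 69.4 CPM in controls. Mutant replicate 9 and control replicate 3 were the highest of their genotypes, and the genotypes overlapped. Macrophage genes other than *cd74a* and *cd74b* summed to 248, 95.9, 191 and 333 CPM in mutants, against 152, 144, 177, 167 and 106 CPM in controls. Mutant replicates 6, 8 and 9 lay above every control for that sum, and mutant replicate 7 lay below every control. The list as first set held *cd74a* and *cd74b*. The symbol *mpeg1* was added to it later, as *fuca1* was to the members, and is in both versions of the sum. Also added later were *myh7* among cardiomyocyte and *pecam1a* among blood endothelial markers. With *cd74a* and *cd74b* the macrophage sums were 740, 397, 465 and 1161 CPM in mutants, against 511, 339.7, 1261, 602 and 396 CPM in controls. Control replicate 3 was then the highest library, and the genotypes overlapped. Fitted above 0 were 17 of the 21 macrophage genes, and 16 of the 19 without *cd74a* and *cd74b*. Of all genes, 48.7% were fitted above 0. The median log2 fold change was 0.51 for the 21 macrophage genes and 0.60 for the 19. It was 0.22 for the 8 pan-leukocyte genes, 0.56 for the 58 lysosomal genes and -0.01 for all genes. No marker with a row was at 0 in every library of a genotype. Mutant replicate 7 had the lowest pan-leukocyte sum of the mutants and was also the lowest mutant for 28 of the 58 lysosomal genes, as it was for 22.5% of all genes. Its summed lysosomal and cathepsin expression was likewise the lowest among mutants, but the glycosphingolipid hydrolase sum was lowest in mutant replicate 8, at 207 CPM. Control replicate 3, with a pan-leukocyte sum of 238 CPM, had a lysosomal sum of 1731 CPM. Control replicates 1 and 2 had higher lysosomal sums, of 1842 and 1847 CPM, with pan-leukocyte sums of 113 and 94.1 CPM. Control replicates 4 and 5 were below replicate 3 in both sums. The relation between these sums was not tested.

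Leaving out both mutant replicate 9 and control replicate 3, a choice made after the data were seen, left 1 of the 58 genes called, *hexb*, with a log2 fold change of 1.69 and an adjusted p-value of 0.00827 by edgeR. Only 0.422% of all genes were called higher in that fit. Fitted changes of the other called genes were, for example, 1.89 for *hexa*, 1.21 for *galns*, 0.89 for *npc2* (ENSDARG00000090912) and 0.74 for *ctsd*, and 51 of the 58 genes were above 0 with a median of 0.43. The sums of cardiomyocyte markers also stood apart by genotype. Their 12 genes summed to 103208 to 115853 CPM in mutants and 123719 to 143202 CPM in controls, without overlap, and none was called. An unadjusted p-value under 0.05 by edgeR was reached by 2 in the higher direction and 6 in the lower. Of all genes, 11.0% and 9.87% reached it. The part of the leukocyte and cardiomyocyte markers in the lysosomal values was not tested. Other marker lists had single genes called, as were 3.34% of all genes in either direction. Of 7 genes listed for smooth muscle of the bulbus arteriosus, *tagln* (ENSDARG00000045408) was higher and *myh11* (ENSDARG00000009782) lower. The median log2 fold change was -1.02. At an unadjusted p-value under 0.05 by edgeR, 1 of the 7 was higher and 5 were lower, against 11.0% and 9.87% of all genes. *tbx18* was lower of 13 epicardial and fibroblast genes, of which 1 was higher and 2 lower at that p-value. Of 7 lymphatic and scavenger endothelial genes, *mrc1* was higher, and *flt4* and *stab2* were lower. Their log2 fold changes were 3.65 ± 0.44 (SE), -2.98 ± 0.52 (SE) and -2.96 ± 0.54 (SE). Unadjusted, 2 of these 7 were higher and 3 lower, with a median of -1.32. None was called of 6 atrial, 4 neutrophil, 8 blood endothelial and endocardial and 5 erythrocyte genes. Unadjusted, 1 atrial gene was higher and 2 lower, and 1 neutrophil gene was higher and 1 lower. Of the endothelial genes 1 was higher, and of the erythrocyte genes 0 reached that p-value. The share of other heart tissue in the libraries was not tested. With single libraries left out, the call of *tagln* was lost in all 9 fits (adjusted p-value 0.0505 to 0.102 by edgeR). That of *tbx18* was lost in all but the fit without control replicate 2 (0.0610 to 0.126), and that of *myh11* without any 1 mutant library or control replicate 3 or 5 (0.0654 to 0.0976). *flt4* lost its call without mutant replicate 6 or 7 (0.0502 and 0.0544) and *stab2* without mutant replicate 8 (0.0572), whereas *mrc1* kept its call in all 9.

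**Figure D4:**
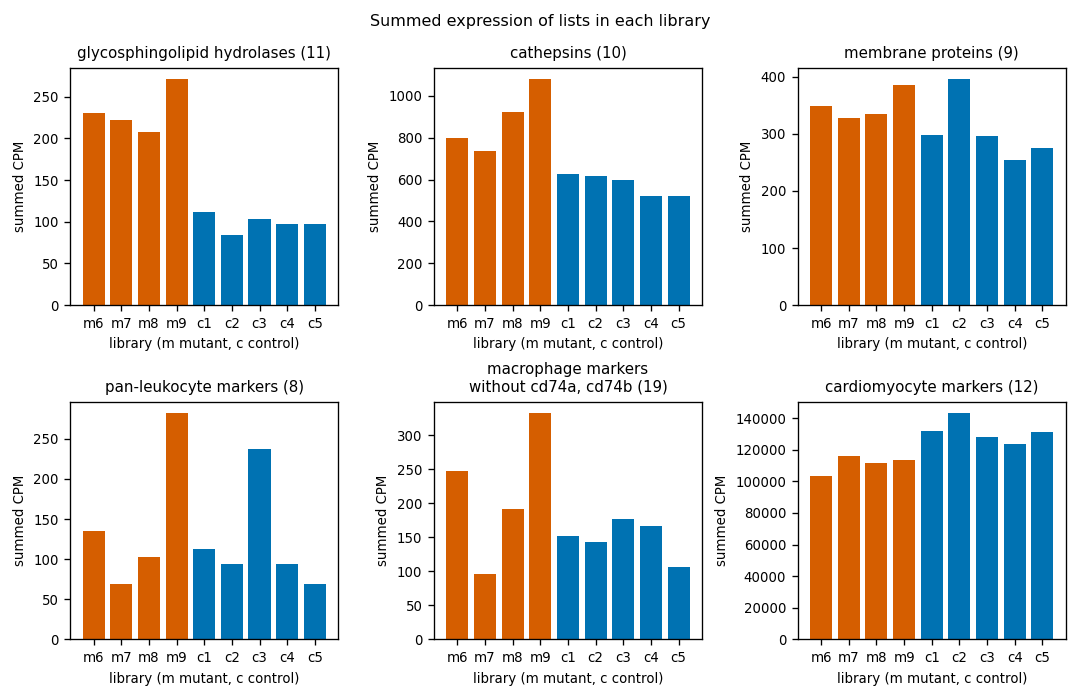
Summed CPM (vertical axes, from 0) in each mutant library (orange, m6 to m9) and control library (blue, c1 to c5) for 3 groups of lysosomal genes and 3 marker lists, with the number of genes in parentheses. The macrophage list is shown without *cd74a* and *cd74b*. Sums of glycosphingolipid hydrolases and cathepsins are higher in all mutant libraries, pan-leukocyte sums are highest in m9 and c3, and cardiomyocyte sums are lower in all mutant libraries.

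Genes that act with the lysosomal enzymes were read from lists of the same kind. The proton pump of the lysosome, the v-ATPase, had 24 genes in the table. None was called by edgeR, 6 had an unadjusted p-value under 0.05, all of them higher in mutants, and 22 were fitted above 0, with a median log2 fold change of 0.22. The MiT/TFE transcription factors, known regulators of lysosomal genes in mammals, had 5 genes, with none called, none at an unadjusted p-value under 0.05 by edgeR and a median of -0.03. Of 17 genes for sorting enzymes to the lysosome, none was called and 5 had an unadjusted p-value under 0.05 by edgeR, 3 higher and 2 lower. Of 23 autophagy genes, none was called, 5 had an unadjusted p-value under 0.05 by edgeR, all higher, and the median was 0.13. Of all genes, 11.0% reached that p-value in the higher direction and 20.9% in either, and 48.7% were fitted above 0. The 5 further cathepsins had none called and none at an unadjusted p-value under 0.05 by edgeR.

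The remaining lists held 24 genes for positioning and docking and 4 cysteine protease inhibitors, with 1 gene called in each. Of all genes, 2.13% were called higher. An unadjusted p-value under 0.05 by edgeR was reached by 7 of the 24 and 3 of the 4, all higher. In that direction it was reached by 11.0% of all genes. *fnip2*, which encodes a partner of folliculin in nutrient signalling at the lysosome, rose in mutants (log2 change 1.19 ± 0.26 SE, adjusted p = 0.0377 by edgeR), as 1 of 24 genes for positioning and docking. Its call was lost with each single library left out, at 0.0536 to 0.0986. *cst14b.1*, in the cystatin family of cysteine protease inhibitors, was at 28.7, 33, 25.4 and 42.4 CPM in mutants, against 15.3, 15.9, 13.4, 15.8 and 10.5 CPM in controls. It rose with no overlap, with a difference of 1.19 ± 0.18 (SE) on the log2 scale at an adjusted p of 0.00955 in edgeR, and kept its call with each single library left out.

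Position was compared because genes near a mutated locus are inherited with it. By gene symbol in the annotation of the GRCz12tu assembly, 10 of the 13 called genes lie on chromosomes other than those of *vegfc* and *vegfd*. The other 3, of *galc*, *asah1* and *npc2*, share their symbols and could not be placed. Of the 45 genes that were not called, 32 lie on other chromosomes as well, 9 share their symbols and 1 was not matched. The rest are *glb1* and *lamp1* on the chromosome of *vegfc* and *man2b1* on that of *vegfd*. The share of all genes on other chromosomes was not computed. These counts are therefore not a result about the called genes, and an effect of position was not tested.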

How the data were processed

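The authors trimmed reads with Skewer 0.2.2, aligned them to GRCz11 (Ensembl release 95) with STAR 2.5.2a and counted reads on the annotated strand with featureCounts 1.5.0 at a mapping quality of at least 20. They dropped genes whose mean count was under 10. The deposited values are raw counts per gene, with 1 column for each of 9 libraries. The mapping quality limit can remove reads of near-identical gene copies, also unequally between fish that differ from the assembly.

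From these counts, TMM scaling and the quasi-likelihood F test (two-sided, legacy form, no covariate) were run in edgeR 4.0.16 under R 4.3.3, on all 16575 genes with Benjamini-Hochberg adjustment and a threshold of 0.05. The standard error is the fold change over the square root of F. No pair of libraries agreed within sampling noise (lowest chi-square per degree of freedom 44.4). Symbols were found for 15812 identifiers (95.4%). The procedure was tested on simulated data, where it called 82.9% of 4-fold and 27.4% of 2-fold changes. Of the calls made there, 5.83% were false. A gene that was not called is therefore not shown to be unchanged.

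The members, lists and tests were chosen with earlier results of these data known. Values are given for called members, glycosphingolipid hydrolases, cathepsins, the 2 members of smallest p-value in each other group, called genes of the further lists, *vegfc* and *vegfd*; others are given by range or fold change. Alternatives were the likelihood ratio test, DESeq2 1.42.0, voom in limma 3.58.1, other scalings, a filter at a mean of 50 counts, a threshold of 0.01 and leaving out libraries. Depth limits genes of few counts, such as *gla*. One gene is not reported here.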

Additional observations from a re-analysis of the deposited data

Results flagged for a closer look

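Single libraries lay far from the rest of their genotype in 8 of 82 groups of values, by Dixon's criterion at 95%. Chance flags about 1 in 20 groups, here 4.1. Mutant replicate 9 was far above the other mutants for *ctsh* (75.6 CPM, others 32.7 to 33.5 CPM), *ctsz* (37.3 CPM, others 21.7 to 22.5 CPM), *gm2a* (25.6 CPM, others 16.5 to 16.9 CPM), *arsa* (9.51 CPM, others 4.73 to 5.04 CPM) and *glb1* (10.5 CPM, others 5.40 to 5.97 CPM). It was also the mutant with the highest pan-leukocyte sum, at 282 CPM. Mutant replicate 7 was lowest for *ctsf* (55.03 CPM, others 64.1 to 64.9 CPM). Among controls, replicate 2 was lowest for *galc* ENSDARG00000037064 (1.42 CPM, others 5.60 to 5.82 CPM) and highest for *lamp1* (35.8 CPM, others 21.4 to 23.9 CPM). Control replicate 2 also had the lowest total and the most genes at 0 counts, 684.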

How the results depend on the processing

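All genes called higher and lower in mutants numbered 353 and 200, against 817 and 540 by the likelihood ratio test and 929 and 737 by DESeq2, which called 21 lysosomal genes higher. A threshold of 0.01 left 68 and 19 genes, with 4 lysosomal genes higher and 0 lower, 2 glycosphingolipid hydrolases and 0 cathepsins. Without both mutant replicate 9 and control replicate 3, 70 and 31 genes were called, with 1 lysosomal gene higher and 0 lower, 1 glycosphingolipid hydrolase and 0 cathepsins. With single libraries left out, 136 to 322 genes were higher and 60 to 170 lower; lysosomal genes called higher numbered 6 to 11 and lower 0 to 0, glycosphingolipid hydrolases 2 to 5 and cathepsins 2 to 3. Fewer libraries entered these fits, and the cause of the range was not tested. All 12 genes called higher kept their call under the likelihood ratio test, DESeq2, voom, RLE scaling, TMM without mitochondrial genes and the filter at 50 counts, and 11 with library size alone, where *ctsb* lost it. *glb1* changed sign without mutant replicate 6 (log2 fold change 0.00012), mutant replicate 8 (0.022) or control replicate 3 (0.043), over a range from -0.36 to 0.043, and *vegfc* without both libraries (-0.061). The number of lysosomal genes above 0 was 49 to 53 in every fit that kept all 58. The sources used here describe no pairs of mutant and control libraries, so no paired analysis was run.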
